A study of Mus musculus with 8 samples.

Results

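The 9 genes described here act at the G1 restriction point: the Cip/Kip inhibitors Cdkn1a (p21), Cdkn1b (p27) and Cdkn1c (p57), the Ink4 inhibitor Cdkn2c (p18), the kinases Cdk4 and Cdk6, and the D cyclins Ccnd1, Ccnd2 and Ccnd3. They were chosen by name from the 32285 genes counted and were described in cells with at least 1000 genes, at least 2000 unique molecular identifiers (UMIs, each standing for 1 captured transcript) and at most 10% mitochondrial UMIs. A D cyclin bound to Cdk4 or Cdk6 phosphorylates the retinoblastoma protein, which releases E2F factors and lets a cell enter S phase. Cip/Kip proteins bind cyclin-Cdk complexes, whereas Ink4 proteins bind Cdk4 and Cdk6 alone. In mice, loss of Cdkn1c impairs the quiescence of hematopoietic stem cells, and loss of Cdkn2c enlarges the stem cell pool.

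Cells came from the Epcr+Lin-Sca-1+Kit+ sort gate and were profiled by 3′ droplet RNA sequencing. Of the 8 samples, 6 were gene expression libraries and 2 were the hashtag samples of the labelled pups. At postnatal day 2 (P2), 2 tubes held bone marrow and spleen cells of 2 pups carrying Tppp3-CreERT2 and a LSL-tdTomato reporter. They received tamoxifen at P0, which switches the reporter on for good in cells where the Tppp3 promoter is driving Cre, and daughter cells keep it. Tube 1 held tdTomato-positive cells of pup 1 with tdTomato-negative cells of pup 2, and tube 2 the reverse. A pool of 7 wild-type P2 mice gave 3 libraries, 1 each from bone marrow, liver and spleen. For the embryonic day 19 library, written E19 throughout, the title says bone marrow while the tissue label says fetal liver. tdTomato itself was not counted, and the separate hashtag files were not used here. The pool, E19 and the tubes are batches 1, 2 and 3 in the labels, so age and batch cannot be told apart.

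The filter left 37147 cells, between 2473 and 10725 in a library, with median depths of 20120 and 20492 UMIs in the tubes and 6523 to 8275 UMIs in the other 4 libraries. A cell was called stem-gated where at least 3 of 8 stem cell genes (among them Mecom, Hlf and Procr) had a UMI, the list took at least 10 of 10000 UMIs, and no lineage list was positive. It was called lineage-gated where 1 of 6 lineage lists (erythroid, B cell, granulocyte and monocyte, mast cell and basophil, T, NK and innate lymphoid, dendritic) had at least 3 genes and 15 of 10000 UMIs, and the stem list was not positive. This gave 16712 stem-gated and 16321 lineage-gated cells, and left out 458 cells positive for both and 3656 for neither. These classes are ranges of a marker level and not cell types: 1186 stem-gated cells had just 3 stem genes. Stem-gated cells were 93.8% and 66.8% of tubes 1 and 2, 82.9% of E19, and 25.9%, 3.87% and 18.8% of pooled bone marrow, liver and spleen. Many lineage-gated cells therefore passed a sort gate that should remove them, and their makeup differed: erythroid cells were 75.6% of them in E19, and granulocyte and monocyte cells 54.7% in tube 2. Each cell was thinned to 2000 UMIs, and cells with at least 4 UMIs of a 22-gene mitotic list were called with mitotic transcripts, those with at most 1 without. Cells with mitotic transcripts were deeper, for example 8220 against 4820 UMIs at the median in stem-gated cells of pooled bone marrow. Levels are given as CPM, the gene's UMIs relative to all UMIs of its class at the usual counts-per-million scale, with exact 95% Poisson intervals that cover counting error only.

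RefSeq promoter windows of 300 bases (GRCm38.p6) were listed for 6 of the 9 genes, and those of Cdk4, Cdk6 and Cdkn2c are shown. The choice was made after the values were seen, by level and by motif. Levels of these members in stem-gated cells were higher with than without mitotic transcripts. In the fit reported below Cdk4 and Cdk6 were not called. Their windows and that of Cdkn2c held CACGTG. This palindromic E-box, which Myc family factors bind, is in capitals. The Cdk4 window is chr10:127063285-127063584 on the plus strand, the Cdk6 window chr5:3343643-3343942 on the plus strand, and the Cdkn2c window chr4:109665323-109665622 on the minus strand.
Cdk4: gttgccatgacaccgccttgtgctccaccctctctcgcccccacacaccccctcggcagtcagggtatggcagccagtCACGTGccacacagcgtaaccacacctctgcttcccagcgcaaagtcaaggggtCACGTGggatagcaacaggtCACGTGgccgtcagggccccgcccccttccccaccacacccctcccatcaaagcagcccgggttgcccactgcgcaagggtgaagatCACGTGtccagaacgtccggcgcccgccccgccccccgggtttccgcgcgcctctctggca
Cdk6: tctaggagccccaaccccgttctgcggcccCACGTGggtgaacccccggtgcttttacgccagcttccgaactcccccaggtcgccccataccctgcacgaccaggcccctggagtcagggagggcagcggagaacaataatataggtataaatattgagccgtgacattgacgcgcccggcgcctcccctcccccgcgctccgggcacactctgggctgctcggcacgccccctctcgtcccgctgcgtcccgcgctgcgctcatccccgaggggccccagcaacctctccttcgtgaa
Cdkn2c: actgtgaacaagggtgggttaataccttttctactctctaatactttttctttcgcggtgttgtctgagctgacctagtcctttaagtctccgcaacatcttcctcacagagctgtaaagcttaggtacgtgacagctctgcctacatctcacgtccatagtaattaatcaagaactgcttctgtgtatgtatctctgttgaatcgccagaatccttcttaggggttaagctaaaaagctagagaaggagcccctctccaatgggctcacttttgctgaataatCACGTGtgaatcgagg
The Cdk4 window held 4 copies and the Cdk6 and Cdkn2c windows shown 1 each. Having been picked by motif, these windows cannot be weighed against the 7.15% of all 32851 windows that held at least 1. A second Cdkn2c window, chr4:109666707-109667006 on the minus strand, held none. It lies nearer than the printed one to the 5′ end of the annotated gene, at 109667189. The motif is its own reverse complement, so both strands were searched. The listed windows of Cdkn1a, Cdkn1b and Ccnd3 held none. Cdkn1b was also higher with mitotic transcripts in stem-gated cells of 6 of 6 libraries. A link between motif and level was not tested. A match describes these letters only.

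**Figure D1:**
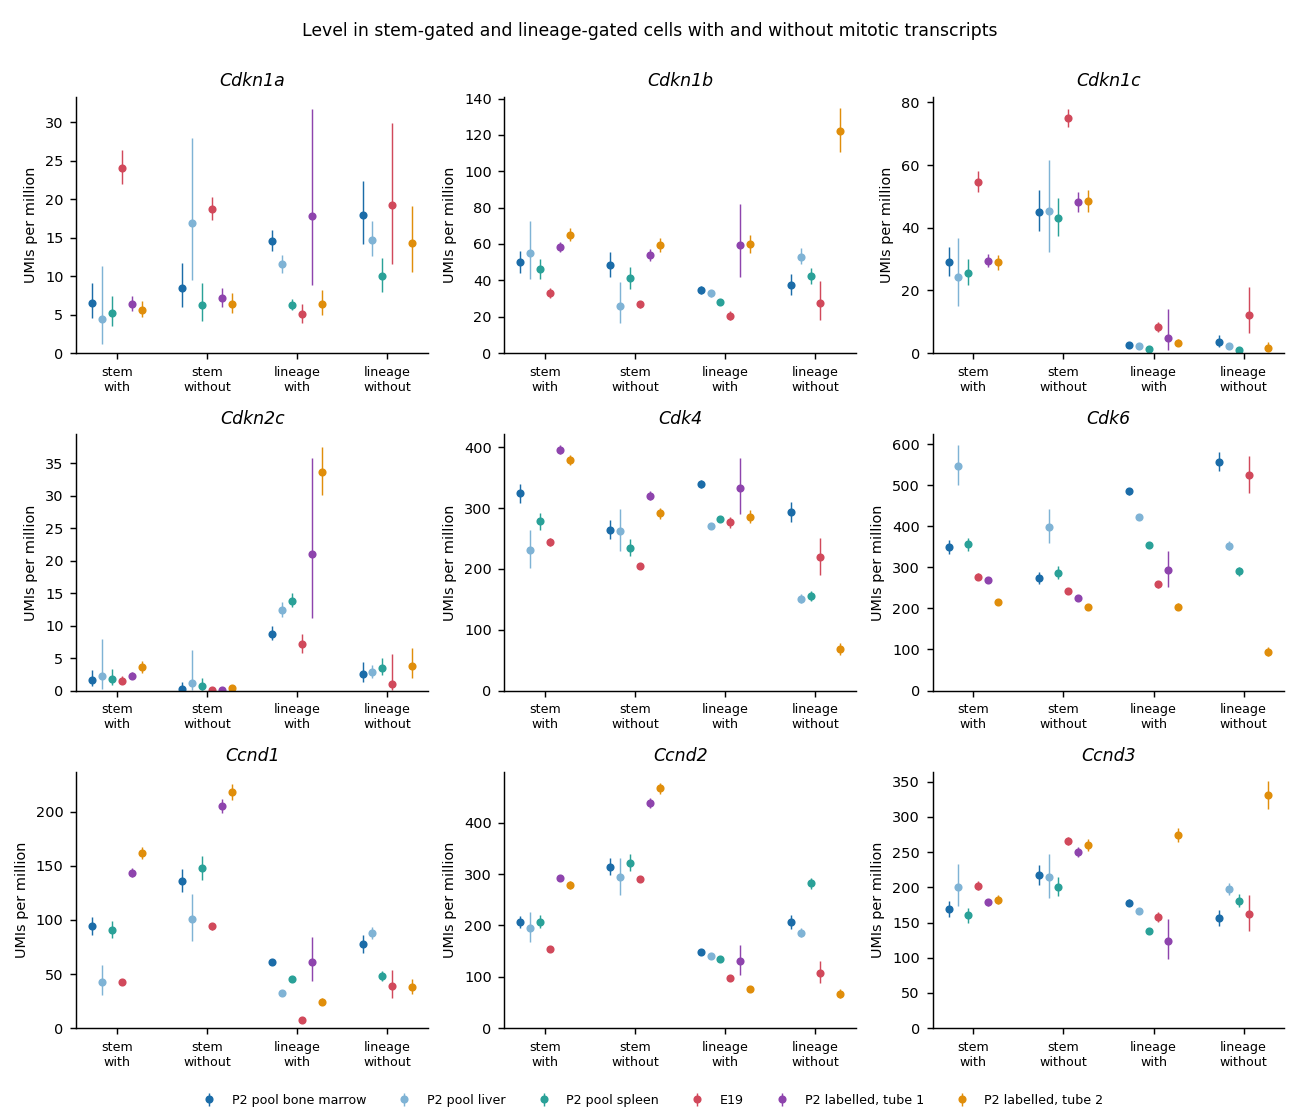
Level of each gene (CPM) in stem-gated and lineage-gated cells with and without mitotic transcripts, 1 point per library with its 95% Poisson interval, classes under 20 cells left out. Cdkn1c lay between 24.2 and 74.9 CPM in stem-gated cells and at or below 12.1 CPM in lineage-gated cells.

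Cdkn1c, the inhibitor tied to stem cell quiescence, was higher in stem-gated cells in each of the 6 libraries with mitotic transcripts and each of the 5 without that had at least 20 cells in both gates. Among cells without mitotic transcripts it stood at 45.2, 45.2, 43.0, 74.9, 48.1 and 48.4 CPM in stem-gated cells of pooled bone marrow, liver, spleen, E19, tube 1 and tube 2, against 3.4, 2.3, 0.9, 12.1 and 1.6 CPM in lineage-gated cells of pooled bone marrow, liver, spleen, E19 and tube 2. The ranges did not overlap. The share of all genes with ranges apart was not counted, here or for the members below. In counts summed over the 4 sources (pool, E19 and each tube), Cdkn1c was higher in stem-gated cells by 3.73 ± 0.35 on the log2 scale (SE, adjusted p = 1.14e-05, edgeR quasi-likelihood test with source as a block), where 37.2% of 15452 genes were called (17.9% higher and 19.3% lower). With mitotic transcripts the difference was 2.85 ± 0.28 (adjusted p = 1.07e-05), where 49.6% of genes were called (26.2% higher and 23.4% lower). A Cdkn1c UMI was seen in 13.1% to 26.3% of stem-gated and 0.65% to 4.52% of lineage-gated cells thinned to 5000 UMIs. In liver, T, NK and innate lymphoid cells with mitotic transcripts showed 60.2 CPM, which rested on 26 UMIs in 58 cells.

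Cdkn2c, the Ink4 inhibitor, ran the other way. In cells with mitotic transcripts it stood at 1.7, 2.2, 1.8, 1.5, 2.3 and 3.6 CPM in stem-gated cells, in the library order above, against 8.8, 12.4, 13.9, 7.1, 21.0 and 33.7 CPM in lineage-gated cells, and the ranges did not overlap. It fell by 3.13 ± 0.28 in stem-gated cells (adjusted p = 5.25e-06), and by 3.80 ± 0.42 without mitotic transcripts (adjusted p = 4.03e-05). Without mitotic transcripts stem-gated sums held only 3 to 5 Cdkn2c UMIs per source, so the size of that difference is loosely set. Among lineages with mitotic transcripts the pooled libraries showed 23.1 to 32.8 CPM in B cells and 8.5 to 15.3 CPM in erythroid cells, but 1.3 to 4.5 CPM in granulocyte and monocyte cells, which in tube 2 stood at 39.3 CPM.

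Cdkn1b and Cdkn1a did not separate the gates in one direction. Cdkn1b fell by 0.81 ± 0.23 in stem-gated cells without mitotic transcripts (adjusted p = 0.0158), at 26.0 to 59.3 CPM, against 27.2 to 122.3 CPM in lineage-gated cells, and the ranges overlapped. It was called in 11 of 18 settings, counting the fit as reported and 17 alternatives. The difference was -0.26 without tube 2 (adjusted p = 0.283), -0.65 without tube 1 (adjusted p = 0.0651), -0.93 without the replicate block (adjusted p = 0.129), -0.71 in thinned cells (adjusted p = 0.105) and -0.48 with library totals (adjusted p = 0.0818). It was -0.39 against granulocyte and monocyte cells alone (adjusted p = 0.637) and 0.54 against erythroid cells alone (adjusted p = 0.0535). With mitotic transcripts its difference was 0.08 ± 0.20 (adjusted p = 0.777). There it was called in 2 of 18 settings, with differences from -0.74 to 0.41. Within lineages Cdkn1b ranged between 14.9 and 16.7 CPM in granulocyte and monocyte cells of the pool and 100.4 CPM in those of tube 2, and between 55.5 and 78.8 CPM in B cells of the pool. Cdkn1a, the p53-induced inhibitor, differed by -1.05 ± 0.47 without and -0.27 ± 0.44 with mitotic transcripts (adjusted p = 0.0997 and 0.638). Without E19 it fell in both (by 1.28, adjusted p = 0.00976, and by 0.93, adjusted p = 0.0242). Cdkn1a was called in 3 of 18 settings without and 4 of 18 with mitotic transcripts. Its differences ran from -1.49 to 1.87 and from -1.56 to 1.83, so its direction depended on the setting. Its lineage levels spread widely, at 1.2 to 4.3 CPM in erythroid cells and 3.3 to 36.9 CPM in B cells.

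Neither kinase was called between the gates in the fit as reported. Cdk4 stood at 205.2 to 320.5 CPM in stem-gated cells without mitotic transcripts, against 68.0 to 292.8 CPM in lineage-gated cells (log2 difference 0.46 ± 0.29, adjusted p = 0.247). Cdk4 was called in 5 of 18 settings, with differences from -0.48 to 1.13, and rose by 0.96 without E19 (adjusted p = 0.0292). Cdk6 stood at 204.5 to 398.7 CPM, against 94.2 to 557.2 CPM (-0.52 ± 0.28, adjusted p = 0.168). It was called in 2 of 18 settings, with differences from -1.07 to 0.08, and fell by 0.89 without tube 2 (adjusted p = 0.0180). With mitotic transcripts Cdk4 differed by -0.16 ± 0.26 and Cdk6 by -0.32 ± 0.25 (adjusted p = 0.642 and 0.313). There Cdk4 was called in 1 of 18 settings (-0.44 to 0.14) and Cdk6 in 0 of 18 (-0.94 to -0.03). Cdk6 was at 556.6 to 720.4 CPM in granulocyte and monocyte cells of the pool and E19, but at 168.6 CPM in those of tube 2, while dendritic cells stood at 82.4 to 161.6 CPM.

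Of the D cyclins, Ccnd1 and Ccnd2 were higher in stem-gated cells and Ccnd3 was not called in the fit as reported. Ccnd1 stood at 136.1, 100.5, 147.9, 94.1, 205.3 and 218.3 CPM in stem-gated cells without mitotic transcripts, against 77.6, 88.0, 48.1, 39.4 and 38.1 CPM in lineage-gated cells (1.23 ± 0.36, adjusted p = 0.0194). Ccnd2, at 290.2 to 466.7 CPM, was set against 67.1 to 281.7 CPM (1.20 ± 0.33, adjusted p = 0.0124). Neither pair of ranges overlapped. Ccnd1 was called in 14 of 18 settings, and missed the threshold without tube 2 (0.94, adjusted p = 0.0915), in thinned cells (1.08, adjusted p = 0.101), in cells that also had no S phase transcripts (1.01, adjusted p = 0.161) and without the replicate block (1.33, adjusted p = 0.0755). Ccnd2 was called in 16 of 18, and missed it without tube 2 (0.80, adjusted p = 0.0543) and against B cells alone (0.60, adjusted p = 0.0972). With mitotic transcripts Ccnd1 rose by 1.52 ± 0.32 (adjusted p = 0.00212) and Ccnd2 by 0.77 ± 0.29 (adjusted p = 0.0408). There the Ccnd1 ranges overlapped, with a minimum of 42.4 CPM in stem-gated and a maximum of 61.3 CPM in lineage-gated sums. The Ccnd1 call was lost in 1 of 18 settings, against granulocyte and monocyte cells alone (1.10, adjusted p = 0.124). Ccnd2 was called in 12 of 18. It lost its call without tube 1 (0.72, adjusted p = 0.141), without tube 2 (0.55, adjusted p = 0.0768), without the replicate block (0.76, adjusted p = 0.0753), with the highest doublet scores removed (0.76, adjusted p = 0.0536), against B cells alone (0.63, adjusted p = 0.0704) and against granulocyte and monocyte cells alone (0.72, adjusted p = 0.242). Ccnd3 differed by -0.10 ± 0.26 and -0.22 ± 0.24 (adjusted p = 0.819 and 0.466). It was called in 2 of 18 settings in each contrast. Over the settings its difference ran from -0.62 to 1.00 without and from -1.28 to 0.21 with mitotic transcripts, so its direction was not stable.

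**Figure D2:**
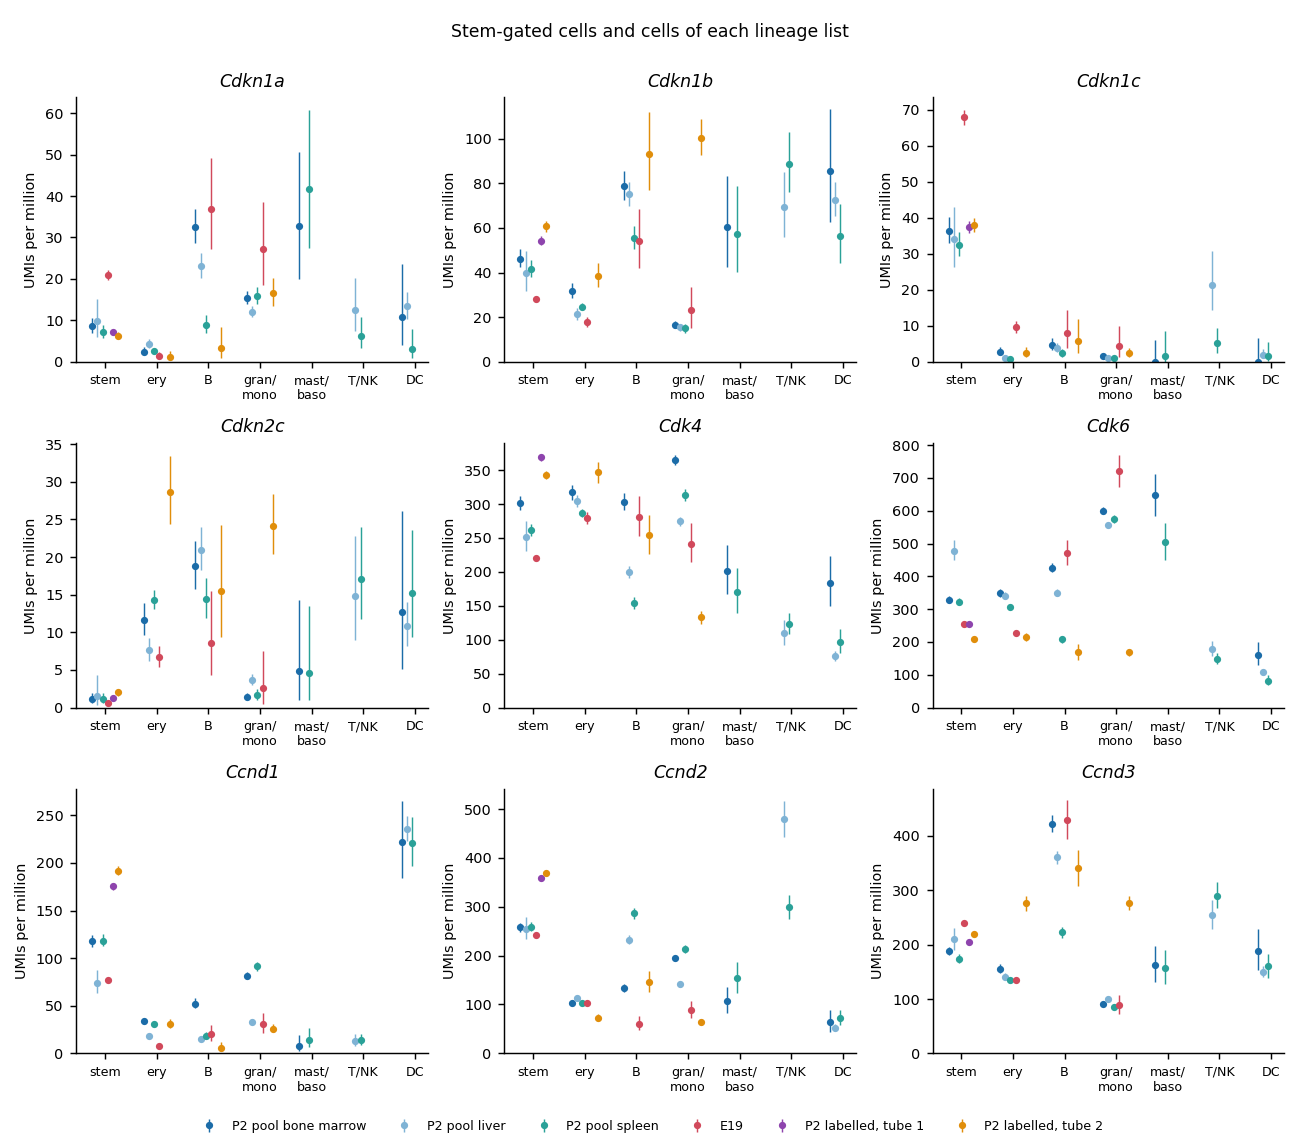
Level of each gene (CPM, 95% Poisson interval) in stem-gated cells and in cells of each lineage list with at least 50 cells, 1 point per library. Ccnd1 in dendritic cells, at 221.1 to 235.9 CPM, lay above its level in stem-gated cells of the same libraries.

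The D cyclins stood high in different lineages. Ccnd1 reached 221.5, 235.9 and 221.1 CPM in dendritic cells of pooled bone marrow, liver and spleen, and stayed at or below 91.5 CPM in the other lineages. Ccnd2 was at 478.9 and 298.7 CPM in T, NK and innate lymphoid cells of liver and spleen and at 52.7 to 72.4 CPM in dendritic cells. Ccnd3 was at 222.4 to 429.1 CPM in B cells and 85.5 to 100.8 CPM in granulocyte and monocyte cells outside tube 2, where it was 276.5 CPM. These are levels of each library, with no test between lineages. By 3′ UMI counts, which do not scale with transcript length, Ccnd2 gave 43.3% to 48.5% of all D cyclin UMIs in stem-gated cells, Ccnd3 27.8% to 42.9% and Ccnd1 13.8% to 24.6%, and 12.6% to 27.4% of cells thinned to 5000 UMIs held UMIs of all 3.

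**Figure D3:**
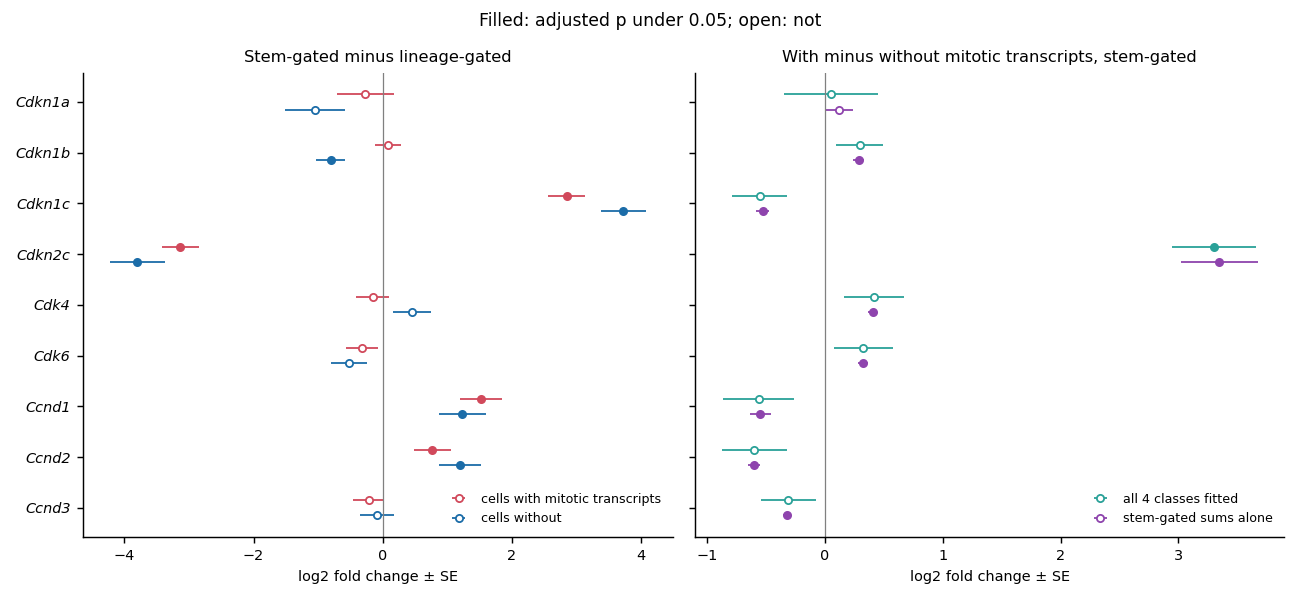
Log2 fold changes with SE for stem-gated minus lineage-gated cells (left) and for stem-gated cells with minus without mitotic transcripts (right, from the fit over all classes and from stem-gated sums alone). Filled points have an adjusted p under 0.05: in the fit over all classes Cdkn2c is the one filled point at right.

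Within stem-gated cells, those with mitotic transcripts had more Cdkn2c, the 1 member past the threshold in the fit over all classes. Cdkn2c rose by 3.30 ± 0.36 (adjusted p = 6.55e-05), where 5.75% of genes were called (3.85% higher and 1.9% lower). The other members were not called, with differences of -0.60 ± 0.28 for Ccnd2 (adjusted p = 0.289), -0.56 ± 0.30 for Ccnd1 (adjusted p = 0.378), -0.55 ± 0.23 for Cdkn1c (adjusted p = 0.239), -0.31 ± 0.23 for Ccnd3 (adjusted p = 0.561), 0.42 ± 0.26 for Cdk4 (adjusted p = 0.457), 0.32 ± 0.25 for Cdk6 (adjusted p = 0.577), 0.29 ± 0.20 for Cdkn1b (adjusted p = 0.512) and 0.05 ± 0.40 for Cdkn1a (adjusted p = 0.9747). A fit of the stem-gated sums alone, added after the data were seen, estimates the spread without lineage-gated cells and called 53.4% of 14334 genes (25.7% higher and 27.8% lower). In it Ccnd2 fell by 0.60 ± 0.05 (adjusted p = 5.41e-07), Cdkn1c by 0.53 ± 0.05 (adjusted p = 2.63e-06), Ccnd1 by 0.55 ± 0.09 (adjusted p = 0.000162) and Ccnd3 by 0.32 ± 0.04 (adjusted p = 8.90e-06), while Cdk4 rose by 0.40 ± 0.04 (adjusted p = 1.21e-06), Cdk6 by 0.32 ± 0.04 (adjusted p = 2.24e-05) and Cdkn1b by 0.28 ± 0.05 (adjusted p = 0.000161). Ccnd1, Ccnd2, Ccnd3 and Cdkn1c were lower in 6 of 6 libraries, Cdk6 and Cdkn1b higher in 6 of 6 and Cdk4 in 5 of 6, although the 3 pooled tissues are 1 source.

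In lineage-gated cells Cdkn2c rose by 2.64 ± 0.35 (adjusted p = 0.000640) and Cdk4 by 1.03 ± 0.29 (adjusted p = 0.0178) with mitotic transcripts, where 38.7% of genes were called (18.2% higher and 20.5% lower). The lineage-gated classes with and without mitotic transcripts differ in makeup: erythroid cells were 3299 of 8235 cells with and 111 of 4327 without them in the pool, and 88.67% of erythroid against 27.12% of B cells in spleen had them. Within single lineages Cdkn2c differed by 2.17 ± 0.52 in erythroid cells (adjusted p = 0.0202), 2.86 ± 0.31 in B cells (adjusted p = 8.20e-06) and 1.77 ± 0.75 in granulocyte and monocyte cells (adjusted p = 0.375), the 1 of 19 settings in which it was not called. Cdk4 differed by 0.40 ± 0.10 in erythroid cells (adjusted p = 0.0272), 1.21 ± 0.18 in B cells (adjusted p = 0.000148) and 0.79 ± 0.48 in granulocyte and monocyte cells (adjusted p = 0.504). It also lost its call without the pool (1.11, adjusted p = 0.102), without tube 2 (0.69, adjusted p = 0.0583) and with library totals (0.88, adjusted p = 0.0512). The difference between the gates in this response was not called for any member (adjusted p = 0.1103 to 0.865 in edgeR), where 3.53% of genes were called (2.17% higher and 1.37% lower). Cdkn1b, at 0.89 ± 0.31, was the 1 member with an unadjusted p under 0.05 (0.0130). It stood higher with mitotic transcripts in stem-gated cells of 6 of 6 libraries and lower in lineage-gated cells of 5 of 5, classes of different makeup. The class without them includes cells with S phase transcripts. Cdkn1b was highest in stem-gated cells with neither S phase nor mitotic transcripts in 4 of 6 libraries. Within lineages its difference was 0.44 ± 0.21 in erythroid cells, 0.008 in B cells and -0.30 ± 0.56 in granulocyte and monocyte cells (adjusted p = 0.197, 0.983 and 0.858). Under alternatives the difference between the gates was called for Cdkn1b in 3 of 18 settings: 1.07 with 0 mitotic UMIs required (adjusted p = 0.0203), 0.84 with 6 libraries as units (adjusted p = 0.0333) and 1.24 with no S phase transcripts (adjusted p = 0.00628). With no S phase transcripts it was also called for Cdkn1c (-1.56, adjusted p = 0.0365) and Cdk4 (-1.26, adjusted p = 0.0265). With B cells alone it was called for Cdkn1c (-2.17, adjusted p = 0.00457), Cdk4 (-0.80, adjusted p = 0.0328) and Ccnd3 (-0.66, adjusted p = 0.0103), and with erythroid cells alone for Cdk6 (0.86, adjusted p = 0.00534) and Ccnd3 (-1.44, adjusted p = 0.0204).

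**Figure D4:**
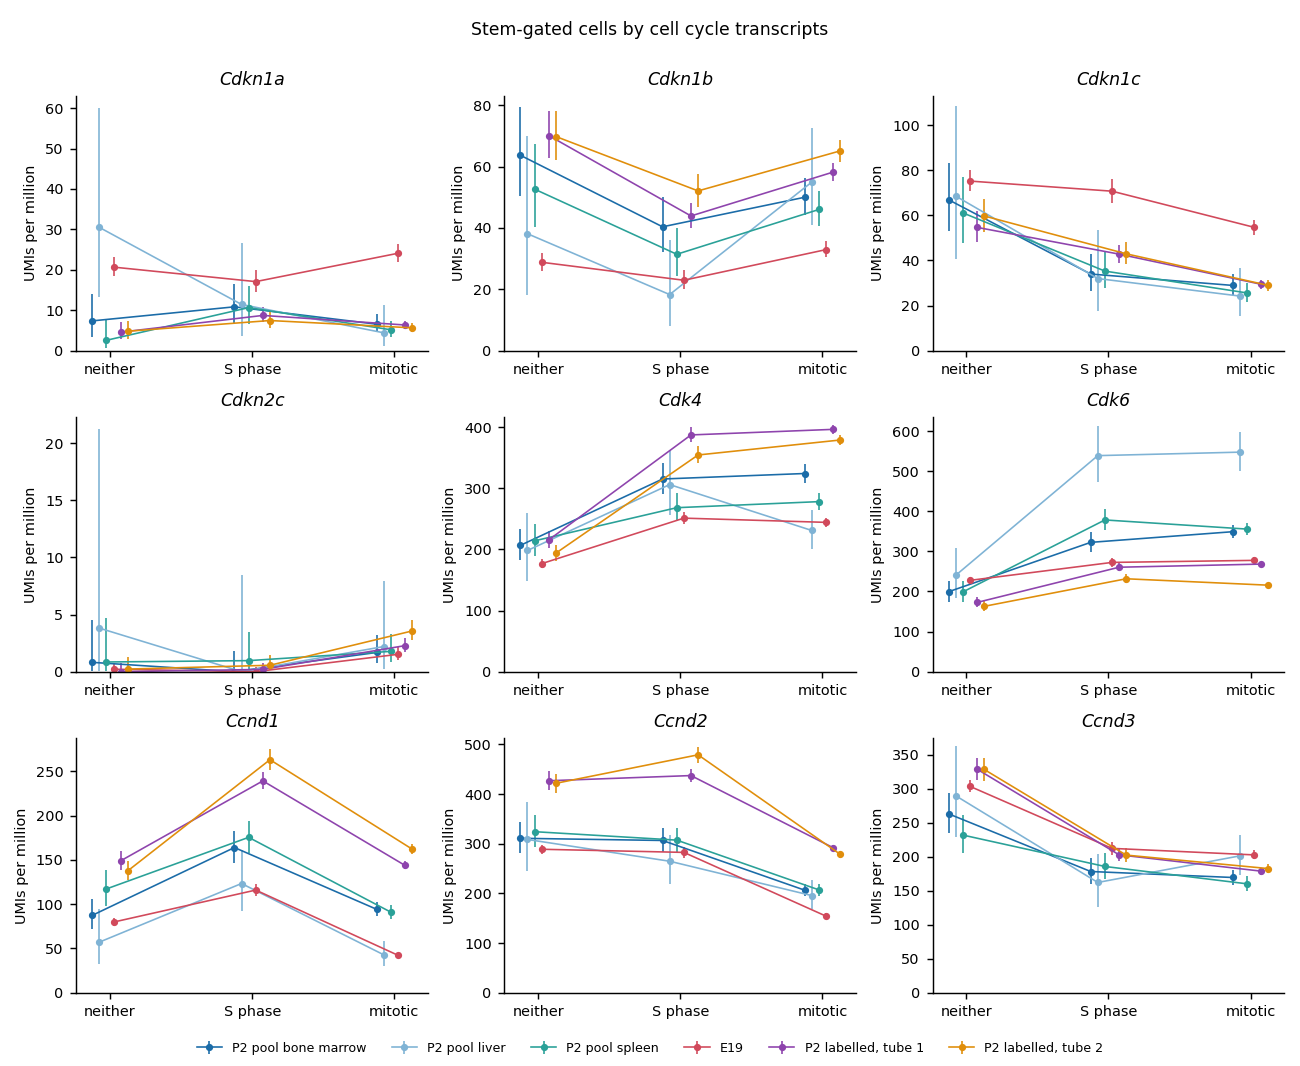
Level of each gene (CPM, 95% Poisson interval) in stem-gated cells with neither S phase nor mitotic transcripts, with S phase transcripts alone, and with mitotic transcripts, 1 line per library. Ccnd1 peaks in the S phase class in 6 of 6 libraries, and Cdkn1c and Ccnd3 in the class with neither.

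A split of stem-gated cells by an 18-gene S phase list separated the members further, as levels with no test. Of cells without mitotic transcripts, those with at least 4 S phase UMIs at 2000 UMIs formed the S phase class. Those with at most 1 formed the class with neither, and cells between were left out. In pooled bone marrow these classes held 338 and 289 of 858 cells, and in liver 48 and 42 of 119. Ccnd1 was highest in cells with S phase transcripts alone in 6 of 6 libraries (115.9 to 263.0 CPM), between 57.2 and 148.9 CPM with neither and 42.4 to 162.1 CPM in mitotic cells. Cdkn1c and Ccnd3 were highest with neither in 6 of 6 libraries, at 54.7 to 75.2 CPM and 231.8 to 328.7 CPM. Some orderings lay within counting error. In E19 Cdkn1c was at 75.24 CPM (70.75 to 79.95) with neither and 70.75 CPM (65.46 to 76.34) in the S phase class. Cdk4 and Cdk6 were lowest with neither in 6 of 6 libraries, at 176.7 to 215.6 CPM and 162.9 to 240.1 CPM. Cdkn1b was lowest in the S phase class in 6 of 6 libraries. It was highest with neither in 4 of 6 and in mitotic cells in 2 of 6. Ccnd2 was lowest in mitotic cells in 6 of 6.

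Between ages there was 1 E19 library, so no test was made. In stem-gated cells without mitotic transcripts Cdkn1a stood at 6.3 to 16.9 CPM in the 5 P2 libraries, against 18.8 CPM in E19, and with mitotic transcripts at 4.4 to 6.5 CPM, against 24.1 CPM (95% interval 21.9 to 26.4) in E19. Cdkn1c stood at 43.0 to 48.4 CPM in P2 libraries, against 74.9 CPM (72.1 to 77.9) in E19. Ccnd1 stood at 100.5 to 218.3 CPM, against 94.1 CPM in E19. Cells without mitotic transcripts include some with S phase transcripts. Among stem-gated cells with neither, Cdkn1c stood at 54.7 to 68.6 CPM in P2 libraries, against 75.2 CPM in E19. That E19 level lay within the 95% intervals of the pooled libraries and above those of both tubes. Ccnd1 there stood at 57.2 to 148.9 CPM, against 79.8 CPM, and Cdkn1a at 2.5 to 30.5 CPM, against 20.7 CPM. The 30.5 CPM, of liver, rested on 8 UMIs.

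Bone marrow and spleen were compared in stem-gated cells of the pool and of each pup, tdTomato-negative cells only. No member was called by edgeR, where 0.0441% of 13618 genes were called, 6 higher in bone marrow and 0.0% lower (1052 at an unadjusted p under 0.05). That split was not stable, with 3 higher and 3 lower by DESeq2, 319 and 524 without the pool, 73 and 122 with no low-count filter, and 28 and 24 in cells without mitotic transcripts. Ccnd1 stood at 118.1, 176.5 and 134.9 CPM in bone marrow, against 118.5, 205.9 and 224.4 CPM in spleen of the pool, pup 1 and pup 2 (-0.39 ± 0.11, adjusted p = 0.332). It was lower in bone marrow in 3 of 3 sources, by little in the pool, and fell by 0.60 without the pool (adjusted p = 0.00219) and by 0.51 in cells without mitotic transcripts (adjusted p = 0.0389).

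**Figure D5:**
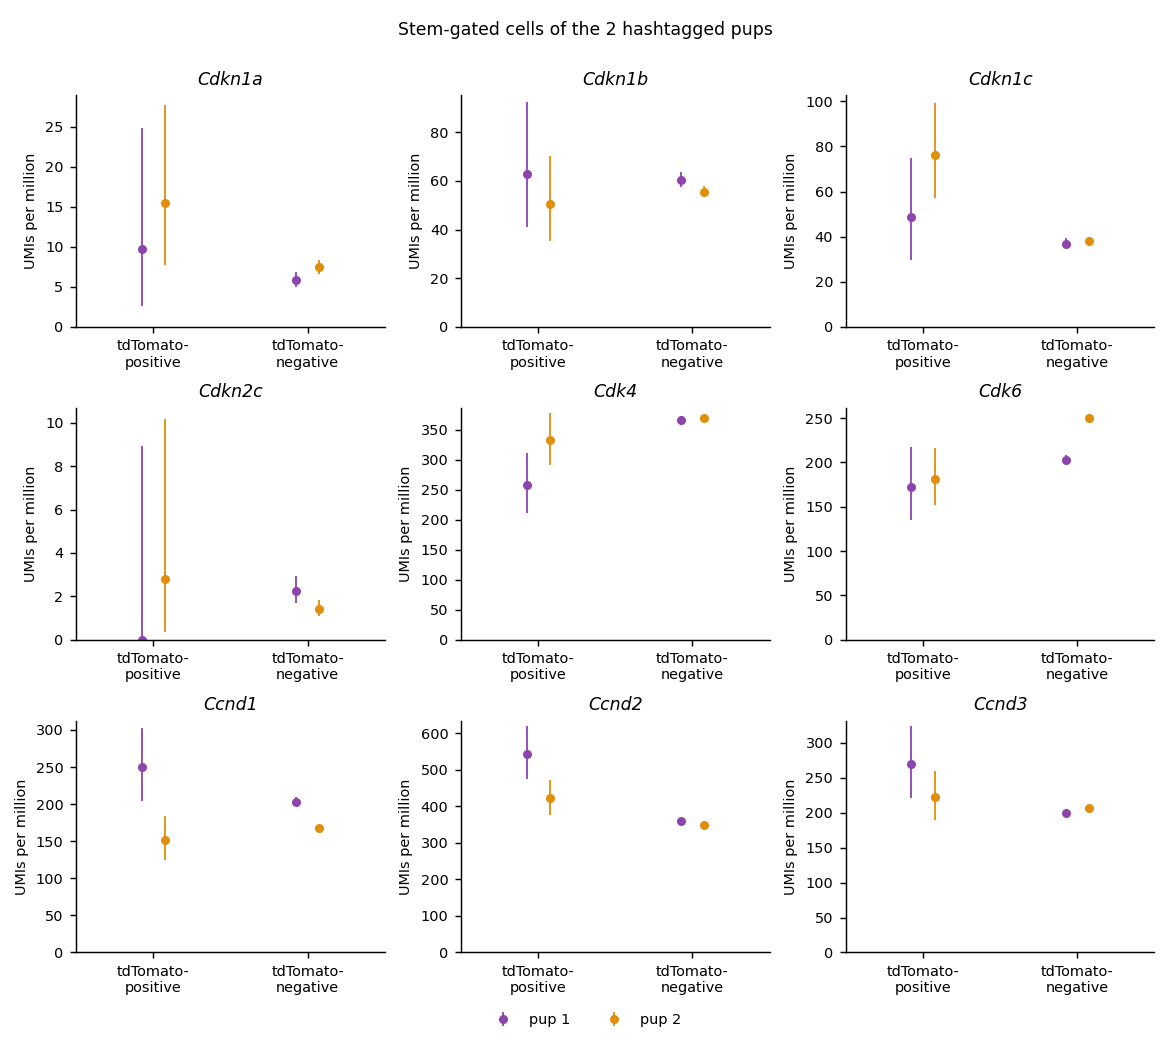
Level of each gene (CPM, 95% Poisson interval) in tdTomato-positive and tdTomato-negative stem-gated cells of each pup. Ccnd2 was at 543.4 and 422.3 CPM in positive cells, against 360.0 and 349.3 CPM in negative cells.

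tdTomato-positive stem-gated cells numbered 29 in pup 1 and 38 in pup 2, against 937 and 1997 negative cells. The positive and negative cells of a pup were in different tubes, crossed between the pups. With pup as a block, where 3.84% of 13548 genes were called (1.03% higher and 2.81% lower), Cdkn1c rose by 0.70 ± 0.21 (adjusted p = 0.0336), at 48.5 and 76.0 CPM against 36.9 and 38.0 CPM, and Ccnd2 by 0.33 ± 0.10 (adjusted p = 0.0188). Cdk6 fell by 0.46 ± 0.12 (adjusted p = 0.00848), at 172.3 and 181.6 CPM against 202.7 and 250.4 CPM, and Cdk4 by 0.39 ± 0.11 (adjusted p = 0.0110), at 257.2 and 332.2 CPM against 365.6 and 368.8 CPM. None of the 4 was called without the block (adjusted p = 0.171 to 0.231), by DESeq2 (adjusted p = 0.518 to 0.959) or among cells without mitotic transcripts (adjusted p = 0.333 to 0.877). A lost call does not show that a difference went. Among cells without mitotic transcripts Ccnd2 stood at 669.1 and 496.7 CPM in positive cells, against 484.8 and 425.6 CPM in negative cells (0.30 ± 0.10), and Cdkn1c at 64.6 and 76.1 CPM, against 49.6 and 50.2 CPM (0.49 ± 0.24). Cdk4 differed by -0.29 ± 0.13 and Cdk6 by -0.20 ± 0.14 there. A lower share of positive cells had mitotic transcripts, 4 of 29 and 9 of 38, against 466 of 937 and 846 of 1997 negative cells, and the part of this in the differences was not tested.

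Among 26 tested genes of 28 other G1 control genes, 6 rose and 6 fell in stem-gated cells without mitotic transcripts (median -0.14, all genes -0.03), near the shares of all genes (17.9% higher and 19.3% lower). Mycn, a Myc family factor, rose by 5.57 ± 0.44 (147.3 ± 34.2 CPM, SD, n = 4, against 3.2 ± 2.5 CPM, n = 3), Cables1 by 1.74 ± 0.52, and E2f2 and the S phase cyclin Ccna2 fell by 3.58 ± 0.29 and 2.94 ± 0.53. With mitotic transcripts 4 rose and 10 fell, where 26.2% of all genes were higher and 23.4% lower. Ccne1, the E cyclin that follows the D cyclins, fell by 2.68 ± 0.39. Mycn stood at 81.9 ± 17.7 CPM (SD, n = 4) in stem-gated cells with mitotic transcripts, below its level without them. Of 18 p53 target genes, 2 rose and 8 fell without mitotic transcripts, where 17.9% of all genes were higher and 19.3% lower. Pmaip1 fell by 5.29 ± 0.82 and Btg2 by 2.94 ± 0.48, while Eda2r rose by 3.43 ± 0.73, at 1.9 CPM against 0.36 CPM. Of 24 imprinted genes, the class to which Cdkn1c belongs, 15 rose and 1 fell without and 12 rose and 1 fell with mitotic transcripts (medians 1.20 and 1.16), where 17.9% and 26.2% of all genes were higher. Rian rose by 6.43 ± 0.68, Meg3 by 6.10 ± 0.54 and Sgce by 4.24 ± 0.34 without mitotic transcripts. In stem-gated cells with against without mitotic transcripts 7 of 26 G1 control genes rose and none fell, where 3.85% of all genes were higher and 1.9% lower, among them the E2F repressors E2f8 by 2.54 ± 0.25 and E2f7 by 2.02 ± 0.30, and the imprinted RNAs Meg3 and Rian fell by 2.13 ± 0.31 and 2.14 ± 0.32. Adjusted p-values of these named genes lay between 3.86e-06 and 0.0201 in edgeR. In tdTomato-positive cells 4 of 22 tested imprinted genes rose and 1 fell, where 1.03% of all genes were higher and 2.81% lower. Meg3 rose by 1.86 ± 0.27 (adjusted p = 1.63e-09), at 66.9 ± 28.9 CPM (SD, n = 2) against 16.3 ± 2.2 CPM. Igf2, a growth factor, rose by 2.28 ± 0.39 (adjusted p = 1.15e-06), at 30.7 ± 26.3 CPM against 6.5 ± 1.1 CPM. The positive sums, of 29 and 38 cells, thus differed widely in Igf2. That fit left 1 residual degree of freedom, so its SE and p-values do not measure this spread between pups. A lower share of positive cells had mitotic transcripts, with which Meg3 fell, and among cells without them 29 genes were called in place of 520; the part of this in the imprinted genes was not tested.

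Over 23 sums of library, gate and mitotic class, the genes most like each member by Pearson correlation of log2 CPM (9232 genes compared, sums sharing libraries and depth) were Igf2bp2 and Myct1 for Cdkn1c (0.98 and 0.97), Arl2 and Impdh2 for Cdk4 (both 0.97), Iffo1 and Usp8 for Cdkn1b (0.94 and 0.92), Ttc37 and Tasor2 for Ccnd2 (0.94 and 0.92), Fam98c and Matk for Ccnd1 (both 0.92), Lnpk and Kmt5a for Cdkn2c (0.91 and 0.90), Rab5b and Map1lc3a for Ccnd3 (0.88 and 0.87), Ptpmt1 and Ndufa12 for Cdk6 (both 0.87), and Cpeb2 and Txndc11 for Cdkn1a (0.80 and 0.73).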

How the data were processed

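The deposited matrices hold raw UMI counts per gene and barcode, made by the authors with Cell Ranger 7.0.0 (pool), 7.1.0 (E19) and 8.0.1 (tubes) per the file headers. Build mm10 and Cell Ranger 7.0.0 are listed in the submitters' processing notes. Cells were filtered and gated as described, no doublets were removed in the results as given, and gate thresholds were set after seeing marker levels. The members and lists were chosen with earlier results of these data known. UMIs were summed per source and class (at least 20 cells; 15 sums, since tube 1 had 14 lineage-gated cells without mitotic transcripts) and fitted by quasi-likelihood in edgeR 4.0.16 (R 4.3.3), after filterByExpr and TMM scaling, with source as a block and a Benjamini-Hochberg threshold of 0.05. The sums of a source come from the same animals, and their deviations from class means correlated at 0.296 to 0.921. In tubes, a cell needed 1 hashtag over the 99th percentile and 3 times the next. Bone marrow against spleen used 6 sums and tdTomato 4. Both tubes hold cells of both pups, so the tubes are not independent animals. The fits left 8 residual degrees of freedom for the 4 classes, 2 for bone marrow against spleen and 1 for tdTomato. The estimate of the spread is shared over the classes of a fit and, in edgeR, in part over genes. The p-values therefore do not measure the spread of 1 gene between sources alone. On simulated data the fit of stem-gated against lineage-gated cells without mitotic transcripts recovered 33 of 100 genes planted at 2-fold and 88 of 100 at 4-fold among 15452 genes. It made 5 false calls. For mitotic transcripts in stem-gated cells 64 and 93 were recovered, for bone marrow against spleen 92 and 100, and for tdTomato 49 and 77. The simulated counts had 1 spread for all genes and no differences between sources, unlike the real sums, so these rates need not hold for them. Genes named from the lists were taken from the up to 4 called genes of each list with the largest change in a comparison, and not all of these are named. Alternatives were DESeq2 1.42.0, library totals, no filter, 6 libraries as units, no block, each source left out, doublet scores, thinning, other gates and single lineages.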

Additional observations from a re-analysis of the deposited data

How the results depend on the processing

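Cdkn1c and Cdkn2c kept their direction and their call between stem-gated and lineage-gated cells as reported and in all 17 alternatives run, with log2 differences of 2.28 to 4.45 and of -4.34 to -2.53. Scaling by library totals alone moved the median of all genes to 0.28 and 0.34 in these contrasts without and with mitotic transcripts (-0.03 and 0.03 with TMM), and split the calls into 4519 higher and 2001 lower and into 6029 and 2158, against 2762 and 2979 and 4050 and 3614 with TMM. Depth limits Cdkn2c, with 3 to 5 UMIs per source in stem-gated cells without mitotic transcripts, and lineage-gated cells of tube 1 (21 with mitotic transcripts). Causes of the changes below were not tested.

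Counts of genes called moved by over 1.5 times as follows. For stem-gated against lineage-gated cells without mitotic transcripts (5741), leaving out a source gave 3366 to 6128, and with mitotic transcripts (7664) granulocyte and monocyte cells alone gave 4685. For mitotic transcripts in stem-gated cells (888), 6 libraries as units gave 1640, B cells alone 5126, DESeq2 1746, erythroid cells alone 3787, no S phase transcripts 2400, stem-gated sums alone 7660, no replicate block 437, and leaving out a source 363 to 749. In lineage-gated cells (5981), thinning gave 3735, erythroid cells alone 2018, granulocyte and monocyte cells alone 78, lineage-gated sums alone 3365, no replicate block 2753, and leaving out a source 1735 to 6175. For the difference between gates (546), requiring 0 mitotic UMIs gave 2748, 6 libraries 2394, B cells alone 1402, thinning 217, DESeq2 2059, granulocyte and monocyte cells alone 0 (749 at an unadjusted p under 0.05), no replicate block 10, no S phase transcripts 3223, and leaving out a source 6 to 964. For bone marrow against spleen (6), library totals gave 11, no low-count filter 195, no replicate block 0 (98 unadjusted), cells without mitotic transcripts 52, and leaving out a source 5 to 843. For tdTomato (520), DESeq2 gave 103, no replicate block 151, cells without mitotic transcripts 29, and leaving out a sum 45 to 217.

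Log2 differences that reversed belonged to members not called as reported, except Cdkn1b in stem-gated against lineage-gated cells without mitotic transcripts (0.54 against erythroid cells alone, adjusted p = 0.0535). In that contrast Cdkn1a was 1.87, Cdk4 -0.48 and Ccnd3 1.00 against erythroid cells, Cdk6 0.081 without E19, and Ccnd3 0.22 with library totals, 0.36 without tube 2 and 0.18 against granulocyte and monocyte cells. With mitotic transcripts, library totals gave Cdkn1a 0.036, Cdk4 0.14 and Ccnd3 0.079, leaving out the pool Cdkn1a 0.15 and Cdkn1b -0.001, tube 1 Cdkn1a 0.021, E19 Cdk4 0.047 and tube 2 Ccnd3 0.08, erythroid cells alone Cdkn1a 1.83, thinning Cdkn1b -0.053, B cells alone Cdkn1b -0.74, and granulocyte and monocyte cells alone Ccnd3 0.21. For mitotic transcripts in stem-gated cells, Cdkn1a was -0.023 with DESeq2, -0.054 with library totals, -0.075 with 6 libraries and -0.25 without E19. In lineage-gated cells, erythroid cells alone gave Cdkn1a 0.12, Cdkn1b 0.44, Cdkn1c -0.29, Cdk6 -0.51 and Ccnd3 1.14, B cells alone Cdkn1a 0.83, Cdkn1b 0.008, Ccnd1 0.44 and Ccnd3 0.34, thinning Cdkn1c -0.32 and Cdk6 -0.12, granulocyte and monocyte cells alone Cdkn1c -0.19 and Ccnd2 0.20, library totals Cdk6 -0.014, no replicate block Cdk6 -0.061, leaving out tube 2 Cdk6 -0.21 and Ccnd3 0.012, the pool Ccnd2 0.16, and no S phase transcripts Ccnd2 0.17. For the difference between gates, erythroid cells alone gave Cdkn1a -0.037, Cdkn1b -0.13 and Cdk4 0.033, B cells alone Cdkn1a -0.73, Cdk6 -0.40, Ccnd1 -1.0 and Ccnd2 0.033, thinning Cdkn2c -0.004, leaving out E19 Cdk6 -0.33 and Ccnd3 0.026, no S phase transcripts Cdk6 -0.012, and granulocyte and monocyte cells alone Ccnd1 -0.47 and Ccnd3 0.025. For bone marrow against spleen, no low-count filter gave Cdkn1c -0.005 and Cdk6 -0.0, leaving out the pool Cdkn1c -0.051, pup 2 Cdkn2c 0.002 and Cdk6 -0.11, the second hashtag rule Cdk6 -0.005, and cells without mitotic transcripts Cdk6 -0.21. For tdTomato, leaving out a sum gave Cdkn1b 0.002, Ccnd1 0.31, Cdkn2c 0.55 and Ccnd1 0.14, library totals Cdkn2c 0.043 and Ccnd1 0.065, DESeq2 Ccnd1 0.007, and the second hashtag rule Ccnd1 0.13. Where leaving out a source or sum reversed a value, the other end of its range was, for stem-gated against lineage-gated cells, -0.89 for Cdk6 without mitotic transcripts, and -0.93 for Cdkn1a, 0.24 for Cdkn1b and -0.36 for Ccnd3 with them. For mitotic transcripts in lineage-gated cells it was 0.59 for Cdk6, -0.34 for Ccnd2 and -0.42 for Ccnd3, for the difference between gates 0.61 for Cdk6, and for tdTomato -0.38 for Ccnd1 and -8.35 for Cdkn2c, a fitted value that is no bound since the 1 positive sum left had 0 Cdkn2c UMIs. Library totals also moved the split of calls to 468 higher and 425 lower for mitotic transcripts in stem-gated cells, 1823 and 3720 in lineage-gated cells and 210 and 230 for tdTomato, against 595 and 293, 2811 and 3170, and 139 and 381. The fits of stem-gated or lineage-gated sums alone were chosen after seeing the data. Of the members' log2 differences under an alternative, 71 reversed, whatever their call. Of those that kept direction, 762 stayed on the same side of the threshold, called or not, 62 gained a call and 55 lost one.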
